A study of Mus musculus with 8 samples.

Results

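The genes described here are those whose symbol begins with Nduf, the nuclear genes of respiratory complex I. They are chosen by symbol, a rule that uses no measured value, although the family was picked for description with earlier results of these data known. Of the 24469 genes in the count table, 45 carry that prefix. Of these, 36 encode subunits of the complex, 7 are Ndufaf genes for assembly factors, and 2, Ndufa4 and Ndufa4l2, carry the prefix but are not counted as complex I subunits. The filter on low counts kept 44 of the 45 and 13617 genes in all. Ndufb1, Ndufaf8 and the complex I genes of mitochondrial DNA are not analysed here.

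RNA was sequenced from hand-picked pancreatic islets, the clusters of hormone-secreting cells in the pancreas, of 8-week-old mice. There were 4 libraries from wild-type C57BL/6 mice and 4 from mice on the C57BL/6 background that had lost 4 snoRNAs of the box C/D class. These are U32a, U33, U34 and U35a, which are cut from introns of Rpl13a, a gene for a ribosomal protein. RNAs of this class guide the methylation of ribosomal and other RNAs. The design asks which islet transcripts differ in level between these genotypes. The labels do not restrict the loss of the snoRNAs to islets or to a cell type, and how the alleles were made is not given in the sources used here.

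Complex I takes electrons from NADH, passes them along a chain of iron-sulfur clusters to coenzyme Q and pumps protons across the inner mitochondrial membrane. Its peripheral arm reaches into the matrix and holds the NADH site and the clusters, while its membrane arm holds the pump. Core subunits carry the chemistry, accessory subunits surround them, and assembly factors help to join the parts and leave the finished enzyme. In beta cells, oxidation of glucose in mitochondria raises ATP, which is a signal for insulin release.

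Promoters of respiratory genes often carry sites for the transcription factors NRF1, YY1 and the ETS family, to which the respiratory regulator GABP belongs. RefSeq windows on GRCm38.p6, from 250 bases before to 50 bases after the transcription start, were found for 39 of the 45 genes, and both strands were searched. For 37 of the 41 windows of these genes the bases after the start lay in a GENCODE transcript of the gene. The NRF1 core GCGCANGCG was in the windows of 10 of the 39 genes (25.6%) and in those of 14.9% of the 10397 tested genes with a window (7.03% of all 27025 genes with one). The YY1 motif ATGGCGGC was in 6 of the 39 (15.4%; 5.42% of the tested genes, 2.6% of all). The ETS motif CCGGAAGT was in 1, Ndufs3 (2.56%; 8.57% of the tested genes, 4.31% of all). At least 1 of the 3 motifs was in 16 windows (41.0%; 25.7% of the tested genes). The NRF1 core is close to its own reverse complement, so that overlapping matches on both strands can be the same stretch. A match is a run of letters and not a measured binding site.

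The 120 bases before the start are printed on the strand of the gene, 5′ to 3′, for 4 genes: Ndufc2 and Ndufa11, which had the smallest unadjusted p among Nduf genes higher and lower in the knockout, and Ndufaf4 and Ndufa8, which show the NRF1 core at other distances from the start. Capitals mark the bases covered by a match to the NRF1 core. The windows are chr7:97399883-97400002 (plus strand) for Ndufc2, chr17:56717642-56717761 (plus strand) for Ndufa11, chr4:24897963-24898082 (plus strand) for Ndufaf4 and chr2:36049339-36049458 (minus strand) for Ndufa8.
Ndufc2: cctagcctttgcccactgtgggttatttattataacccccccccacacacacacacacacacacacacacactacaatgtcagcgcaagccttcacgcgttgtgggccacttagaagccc
Ndufa11: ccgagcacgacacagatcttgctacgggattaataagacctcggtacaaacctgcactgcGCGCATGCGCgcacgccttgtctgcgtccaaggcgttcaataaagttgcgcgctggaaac
Ndufaf4: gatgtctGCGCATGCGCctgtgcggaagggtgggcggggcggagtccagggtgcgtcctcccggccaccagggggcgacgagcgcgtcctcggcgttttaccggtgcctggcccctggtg
Ndufa8: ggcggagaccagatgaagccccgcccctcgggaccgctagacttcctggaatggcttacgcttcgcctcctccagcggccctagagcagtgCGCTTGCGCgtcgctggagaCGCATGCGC
Ndufa11 and Ndufaf4 hold the same stretch of capitals, nearer to the start in Ndufa11 than in Ndufaf4, Ndufa8 holds separate matches with the nearer ending at the start itself, and Ndufc2 holds none of the 3 motifs in its window. Among tested subunits, those with an NRF1 core (7) had a median log2 fold change of 0.06 and those without one (24) of 0.09, which is a description with no test.

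The libraries held 21200000 to 41100000 counts assigned to genes. Levels are given as CPM, counts scaled to a total of 1e+06 for the genes kept after TMM scaling of the library sizes. The library labels were checked on the targeted snoRNAs, which these libraries barely capture: Snord32a (U32a) had 5, 1, 1 and 2 counts in the wild-type replicates and 0 in each knockout library, Snord33 (U33) 6 counts over wild type and 0 over knockout, and Snord34 and Snord35a 0 in all 8. Counts of Rpl13a itself ranged from 1709 to 4273. Markers of acinar cells, the enzyme-secreting cells around islets, took 2.09 to 27.0% of assigned counts in wild type and 5.51 to 28.8% in knockout libraries, with 39 of 41 markers detected in every library. All 10 beta cell markers were detected, and their summed level in CPM was 135000 to 184000 in wild type and 106000 to 134000 in the knockout, ranges that did not overlap. In bulk tissue, fewer cells of a type and less RNA per cell cannot be told apart. The summed level of 6 liver markers was 270 to 337 in wild type and reached 4630 in knockout replicate 2, while the fat cell markers Adipoq and Plin1 were at 0. Counts of Xist were above 1000 in wild-type replicate 4 and knockout replicates 1 and 4 and at most 158 in the other 5 libraries. The part of these differences in the results below was not tested, apart from fits with the acinar share or the Xist class as a covariate, in which no Nduf gene passed the threshold.

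Complex I transcripts were a small share of these libraries, in which Rn45s, the ribosomal RNA precursor, alone took 36.7 to 41.3% of assigned counts. The 36 subunit genes together took 0.0501 to 0.0974% of assigned counts, which is not their share of messenger RNA. Their summed level was 740, 586, 777 and 737 CPM in wild-type replicates 1 to 4 and 655, 740, 715 and 678 CPM in knockout replicates 1 to 4. The knockout values lay inside the wild-type range. The 7 Ndufaf genes together stood at 22.2, 16.3, 17.8 and 18.9 CPM in wild type against 19.9, 20.0, 19.7 and 20.7 in the knockout, again inside the wild-type range.

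Although each subunit enters the complex in fixed proportion, the transcript levels per length spread widely in wild-type islets. On the scale of CPM per kilobase of transcript, Ndufv3, a small accessory subunit beside the NADH site, was among the highest at 71.0 ± 8.82 (SD, n = 4). Ndufb10, a membrane arm subunit that faces the intermembrane space, was at 58.5 ± 9.98. The ranges of mean ± SD of these neighbours met. Both were measured in the same 4 libraries, so meeting ranges do not show whether they differed. At the other end stood Ndufs5 at 0.367 ± 0.265, Ndufab1, the mitochondrial acyl carrier protein, at 0.614 ± 0.0456, and Ndufs1, the largest core subunit, at 2.54 ± 0.163. The ranges of Ndufs5 and Ndufab1 met as well, while Ndufs1 lay above both. The lengths came from an annotation of another build than the counts, and the 3479 bases taken for Ndufab1 are the longest of the subunits, which lowers its level per length. The annotation also lists a copy of Ndufab1, although the estimated counts of Ndufab1 were whole. Those of Ndufs5 and Ndufs1 were not all whole, nor were those of Ndufv3, among the highest (2334.05 in wild-type replicate 1). Reads of Ndufs5 and Ndufs1 may thus be split with copies, while the whole counts of Ndufab1 give no sign of a split. The low values of Ndufs5, Ndufab1 and Ndufs1 are uncertain.

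**Figure D1:**
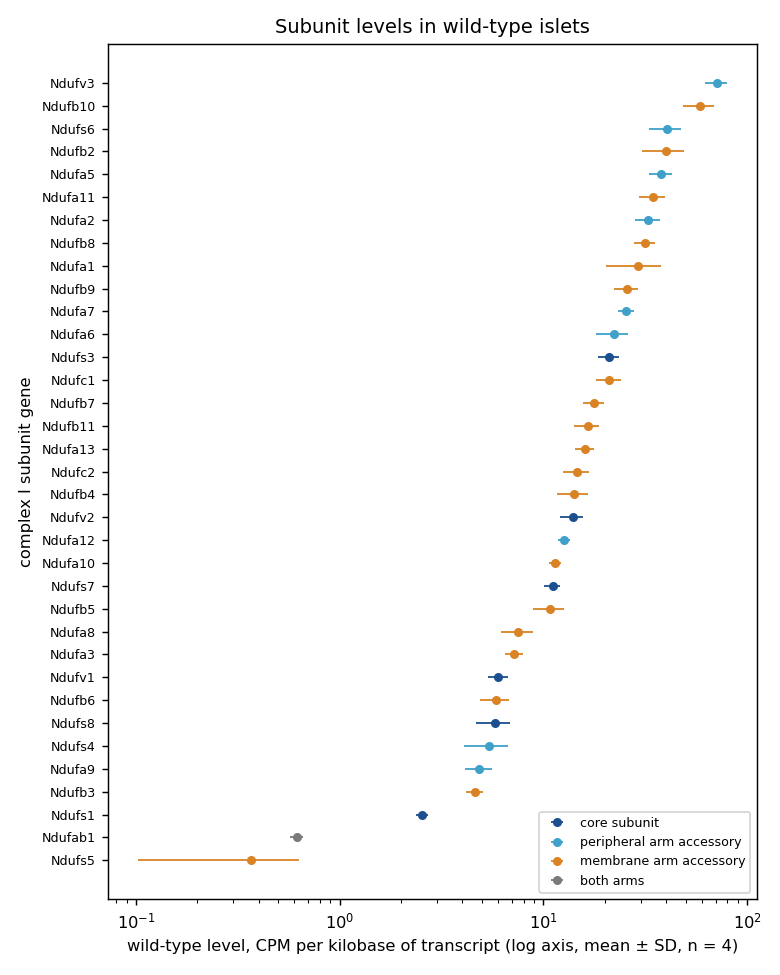
Wild-type level of complex I subunit genes in CPM per kilobase of transcript on a log axis, as points with the SD of 4 libraries, coloured by the place of the subunit in the complex. The subunits shown lie in a band between Ndufs1 (2.54) and Ndufv3 (71.0), with Ndufab1 and Ndufs5 under it.

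Between the genotypes, no Nduf gene passed the threshold of 0.05 on the adjusted p of edgeR's quasi-likelihood test, in a fit in which only 2 genes of 13617 passed, both higher in the knockout (0.0147% higher and 0.0% lower). At an unadjusted p below 0.05, 9 of the 44 tested Nduf genes were higher (20.5%; 8.42% of all genes) and 3 were lower (6.82%; 10.3% of all genes). These counts depended on the fit. Adjusting for the acinar percentage of each library gave 5 higher and 7 lower (1033 and 1000 of all 13617 genes). Removing the trend of each library with transcript length gave 8 and 7 (1160 and 1416 of all genes). Removing that with GC content gave 7 and 1 (765 and 972 of all genes). The counts were 0 and 1 in limma-trend (236 and 741 of all genes) and 8 and 3 in DESeq2 (1181 and 1377). With wild-type replicate 1 left out they were 13 and 5 (1690 and 2192 of 13874 genes). The counts over all genes thus moved with the fit as well. All 4 knockout libraries stood above all 4 wild-type libraries for 2 Nduf genes (4.55%; 3.68% of all genes) and below them for 3 (6.82%; 4.66% of all genes), shares near those of the whole table. DESeq2 called Ndufc2 (adjusted p = 0.0176) and Ndufa11 (0.0363) among 526 genes. The same genes were called by limma-voom with library weights, at 0.0477 for Ndufc2 and 0.0457 for Ndufa11, among 549, while limma-voom without weights and limma-trend called no Nduf gene.

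The subunits were centred close to 0. The 35 tested subunits had a median log2 fold change (knockout over wild type) of 0.06, with 19 above and 16 below 0 and a range from -0.44 to 0.58. All genes tested had a median of 0.01. With library sizes taken as plain assigned totals the subunit median was -0.04, with 14 of 35 above 0, while the median of all genes moved to -0.11, so that the sign of the subunit median rests on the scaling. What the values show is a spread among the subunits, with some membrane arm genes at the top and others of the same arm at the bottom.

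**Figure D2:**
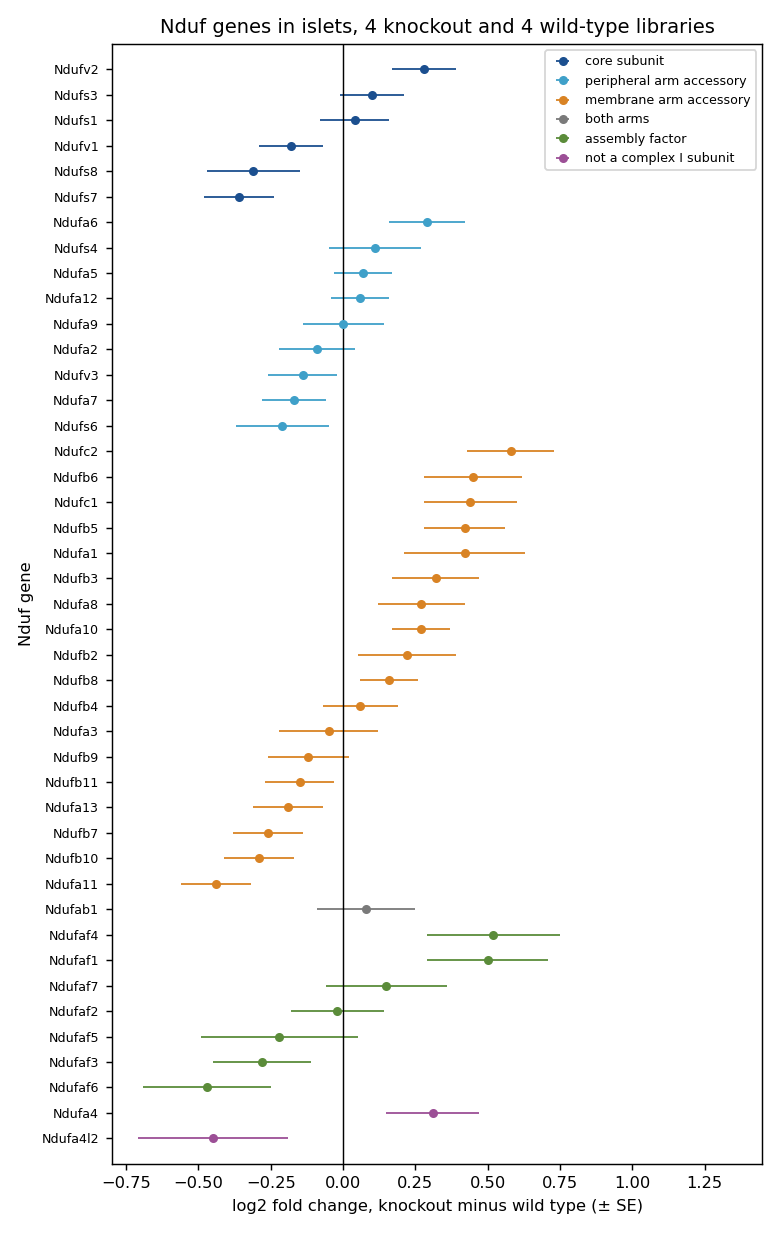
Log2 fold change of tested Nduf genes, knockout minus wild type, with its SE, grouped by role. The membrane arm runs from Ndufc2 (0.58) to Ndufa11 (-0.44), while the core subunits shown lie between 0.28 and -0.36.

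The 7 core subunits encoded in the nucleus all sit in the peripheral arm. Their median log2 fold change was -0.18, with 3 above and 4 below 0. Ndufs7, which holds the last iron-sulfur cluster before coenzyme Q, stood at 8.18, 7.65, 8.50 and 9.47 CPM in wild-type replicates 1 to 4 and at 7.47, 6.20, 6.10 and 6.68 CPM in knockout replicates 1 to 4. Every knockout library was below every wild-type library, with knockout replicate 1 close to the lowest wild-type value. The means were 8.45 ± 0.765 and 6.61 ± 0.628 CPM (SD, n = 4 each). On the log2 scale the knockout differed by -0.36 ± 0.12 (SE), with an unadjusted p of 0.0117 and an adjusted p of 0.179 in edgeR.

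Ndufs8, a further iron-sulfur subunit next to Ndufs7, stood at 6.49, 4.55, 4.98 and 4.34 CPM in wild type against 3.65, 4.27, 4.20 and 4.21 in the knockout. The groups did not overlap, but 3 of the knockout values lay just under the lowest wild-type value. The log2 fold change of Ndufs8 was -0.31 ± 0.16 (SE), with an edgeR adjusted p of 0.291. It was -0.19 without wild-type replicate 1, the highest library, and -0.14 with the trend of each library with GC content removed. Ndufv2, an iron-sulfur protein of the NADH module, went the other way, at 21.1, 15.4, 18.9 and 17.7 CPM in wild type against 20.3, 22.2, 24.0 and 22.3 in the knockout. Only wild-type replicate 1 and knockout replicate 1 crossed. The fitted log2 fold change came to 0.28 ± 0.11 (SE; adjusted p = 0.220 by edgeR).

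Ndufv1, Ndufs3 and Ndufs1 were nearer to 0 against their error. Ndufv1, the subunit that binds the flavin and NADH, averaged 10 ± 1.1 CPM in wild type and 8.83 ± 0.317 CPM in the knockout (SD; log2 fold change -0.18 ± 0.11 SE, edgeR adjusted p = 0.388). Ndufs3, a core subunit of the peripheral arm, had a log2 fold change of 0.10 ± 0.11 (adjusted p = 0.664) and Ndufs1 of 0.04 ± 0.12 (adjusted p = 0.865). For Ndufv1, Ndufs3 and Ndufs1, the sign changed under another scaling, test, trend correction or set of libraries, as given in the closing section.

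The 9 accessory subunits of the peripheral arm held none with an unadjusted p below 0.05, and their log2 fold changes ran from -0.21 to 0.29. Ndufv3 was at 76.1, 61.3, 83.2 and 74.1 CPM in wild type against 76.1, 63.1, 70.4 and 58.7 in the knockout. The groups overlapped, and the log2 fold change came to -0.14 ± 0.12 (edgeR adjusted p = 0.539). Ndufa6, a small protein of the family that works with acyl carrier protein, was the highest of the group at 0.29 ± 0.13 (adjusted p = 0.272).

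The membrane arm had the wider range. Of its 18 tested accessory genes, 11 were above and 7 below 0, with a median of 0.19, and 6 were higher and 2 lower at an unadjusted p below 0.05, where 8.42% of all genes tested were higher and 10.3% lower. Ndufc2, a membrane subunit that pairs with Ndufc1, had the smallest p of the Nduf genes. It stood at 10.7, 8.85, 11.7 and 8.68 CPM in wild-type replicates 1 to 4 and at 11.4, 15.2, 16.3 and 16.7 CPM in knockout replicates 1 to 4. Knockout replicates 2 to 4 were above all wild-type libraries and knockout replicate 1 was among them. The means were 9.98 ± 1.46 and 14.9 ± 2.4 CPM (SD, n = 4 each), a log2 fold change of 0.58 ± 0.15 (SE; by edgeR unadjusted p = 0.00199 and adjusted p = 0.142). Its gene is on chromosome 7, as is Rpl13a, with 196 tested genes counted from Rpl13a to Ndufc2. The other Nduf genes of chromosome 7, Ndufab1 and Ndufa3, lie 365 and 406 tested genes away.

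Ndufb5 and Ndufb6 belong to the outer part of the membrane arm, away from the peripheral arm. Ndufb5 was at 14.0, 9.15, 12.1 and 11.3 CPM in wild type against 13.2, 15.5, 16.3 and 17.0 in the knockout. Here too knockout replicate 1 fell within the wild-type values, which reached their highest in wild-type replicate 1. In the fit its log2 fold change amounted to 0.42 ± 0.14 (SE; by edgeR unadjusted p = 0.0109 and adjusted p = 0.176). Ndufb6 was at 4.79, 3.61, 3.66 and 3.39 CPM in wild type against 4.06, 5.28, 6.05 and 5.65 in the knockout, with the same pair of libraries crossing. The log2 fold change of Ndufb6 was 0.45 ± 0.17 (edgeR adjusted p = 0.204). Part of the exons of both genes is shared with a gene on the opposite strand, 11.6% of Ndufb5 with Mrpl47 and 39.0% of Ndufb6 with Smim27. The strand of these libraries is not given in the sources used here, so reads of such pairs cannot be told apart there.

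Ndufc1 stood at 7.99, 5.99, 6.29 and 6.16 CPM in wild type against 6.29, 10.5, 9.37 and 9.54 in the knockout. Wild-type replicate 1 was apart from the other wild-type libraries, and knockout replicate 1 lay at their level. The log2 fold change stood at 0.44 ± 0.16 (SE; adjusted p = 0.208 by edgeR). Ndufa10, a large accessory subunit on the matrix face of the membrane arm, was at 23.8, 21, 22.5 and 24.5 CPM in wild type against 26.6, 32.1, 27.4 and 24.5 in the knockout. The knockout libraries were all higher, though the lowest of them and the highest wild-type library both round to 24.5 CPM. Its log2 ratio of knockout to wild type was 0.27 ± 0.10 (SE; adjusted p = 0.214 by edgeR), and 0.19 without knockout replicate 2, the highest library.

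Ndufa11, a membrane protein at the root of the membrane arm that touches complex III in supercomplexes, had the smallest p among the lower genes. It stood at 17.0, 15.9, 21.3 and 21.2 CPM in wild type against 13.8, 13.6, 15 and 13.2 in the knockout. Every knockout library was below every wild-type library, and the knockout values lay closer together. The means were 18.9 ± 2.81 and 13.9 ± 0.757 CPM (SD, n = 4 each), a log2 fold change of -0.44 ± 0.12 (SE; by edgeR unadjusted p = 0.00295 and adjusted p = 0.144). The annotation also lists a copy, Ndufa11b, so some of these reads may belong to it, and 6.41% of the exon bases of Ndufa11 overlap Vmac on the opposite strand.

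Ndufb10 and Ndufb7 face the intermembrane space and carry cysteine pairs that form disulfide bonds. Ndufb10 was at 40.7, 35.6, 53.0 and 42 CPM in wild type against 39.2, 35.3, 34.1 and 32.0 in the knockout. Knockout replicate 1 lay within the wild-type range and the other knockout libraries under it. On the log2 scale the knockout differed by -0.29 ± 0.12 (SE; by edgeR unadjusted p = 0.0407 and adjusted p = 0.248), and by -0.18 without wild-type replicate 3, the highest library. Ndufb7 averaged 11 ± 1.27 CPM in wild type and 9.25 ± 0.879 CPM in the knockout (SD; log2 fold change -0.26 ± 0.12 SE, edgeR adjusted p = 0.273). The 10 tested Ndufb genes together were 6 above and 4 below 0, with a median of 0.11. Ndufab1, which sits in both arms, had a log2 fold change of 0.08 ± 0.17 (adjusted p = 0.816), and its sign changed under other scalings.

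**Figure D3:**
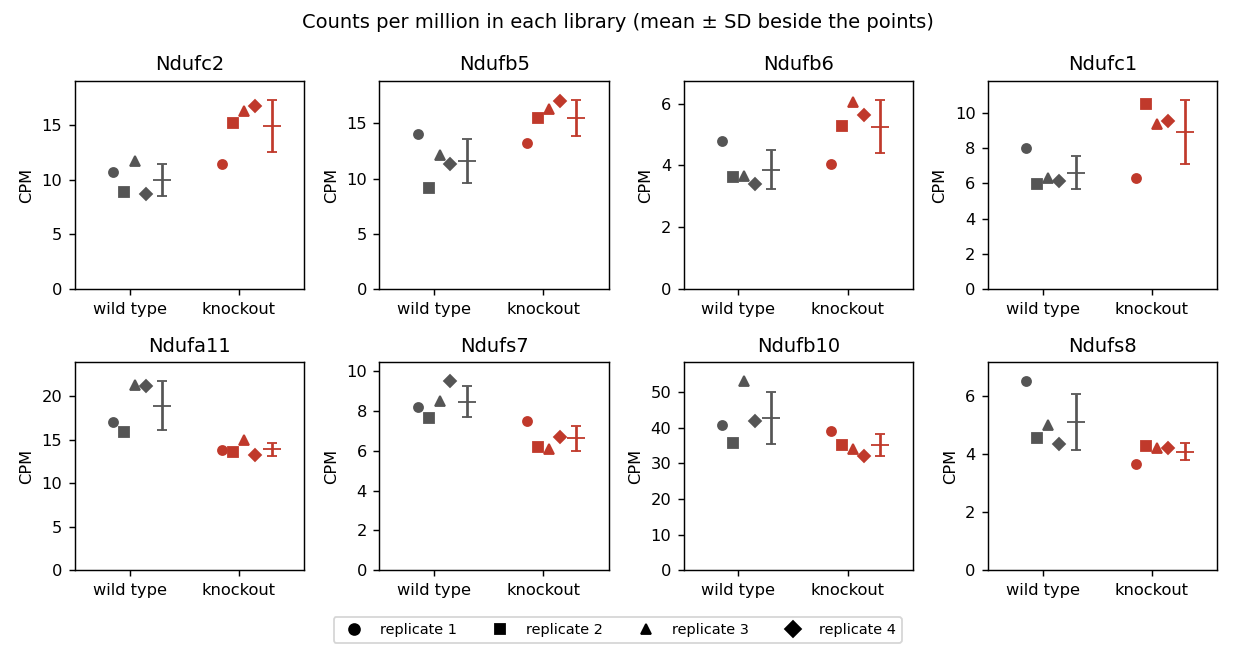
CPM of 8 subunit genes in each library, with the mean and SD of each genotype beside the points and a marker shape for each replicate number. In the upper row (higher in the knockout) knockout replicate 1 lies among the wild-type libraries, while Ndufa11, Ndufs7 and Ndufs8 in the lower row do not overlap.

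Ndufs5 did not pass the filter on low counts and was not tested. Its estimated counts were 9.86, 0, 7.47 and 6.80 in wild type and 3.75, 0, 0 and 0 in the knockout. Ndufc1, with a shorter transcript, had 107 to 322 counts in the same libraries. Whether reads of Ndufs5 were split with copies was not tested. Ndufa4, now assigned to complex IV, was at 18.1, 12.8, 15.6 and 16.0 CPM in wild type against 14.2, 25, 20.0 and 18.1 in the knockout. Its groups overlapped, with a log2 fold change of 0.31 ± 0.16 (SE; adjusted p = 0.315 by edgeR). It was 0.16 without knockout replicate 2, the highest library, and 0.16 with the GC trend removed. Ndufa4l2, its paralog and a known target of the hypoxia-inducible factor, was low, at 0.978, 2.17, 1.90 and 1.6 CPM in wild type against 1.24, 1.27, 1.33 and 1.03 in the knockout. Apart from wild-type replicate 1, the wild-type libraries were all higher, and the log2 fold change came to -0.45 ± 0.26 (edgeR adjusted p = 0.353).

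The assembly factors had low counts and stood on both sides of 0. The 7 Ndufaf genes had a median log2 fold change of -0.02, with 3 above and 4 below 0. Ndufaf1, part of the intermediate that builds the membrane arm near its root, stood at 2.05, 1.78, 1.38 and 2.04 CPM in wild type against 3.35, 2.25, 2.47 and 2.25 in the knockout. All knockout libraries were above all wild-type libraries. The log2 fold change stood at 0.50 ± 0.21 (SE; by edgeR unadjusted p = 0.036 and adjusted p = 0.242).

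Ndufaf4 works with Ndufaf3 on the module that binds coenzyme Q. It was at 6.59, 3.01, 4.18 and 3.33 CPM in wild type against 6.23, 5.58, 5.65 and 7 in the knockout. Wild-type replicate 1 was at the knockout level and the other 3 wild-type libraries were below it. The fitted log2 fold change came to 0.52 ± 0.23 (SE; by edgeR unadjusted p = 0.0416 and adjusted p = 0.249), while that of its partner Ndufaf3 was -0.28 ± 0.17 (adjusted p = 0.364).

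Ndufaf6, needed early in assembly, had the most negative value of the assembly factors. It was at 2.48, 2.41, 2.11 and 3.33 CPM in wild type against 1.35, 2.41, 1.63 and 1.96 in the knockout, with groups that overlapped through knockout replicate 2. The log2 fold change stood at -0.47 ± 0.22 (SE; adjusted p = 0.280 by edgeR). Ndufaf5 modifies an arginine of Ndufs7, and Ndufaf7 is a methyltransferase of complex I assembly. Their log2 fold changes were -0.22 ± 0.27 (adjusted p = 0.675) and 0.15 ± 0.21 (adjusted p = 0.715). Ndufaf2, a paralog of the subunit Ndufa12 that holds its place before the NADH module joins, averaged 2.10 ± 0.130 CPM in wild type, against 2.07 ± 0.0735 in the knockout (SD, n = 4 each; log2 fold change -0.02 ± 0.16).

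The log2 fold changes of the subunits ran along with the GC content of their transcripts. GC content of the 35 tested subunits ran from 43.1 to 60.7% with a median of 52.2%, beside a median of 50.4% over all tested genes, and their median length was 838 bases beside 2910. In the 17 subunits under the median GC, the median log2 fold change was 0.16 and 14 were above 0. In the 18 at or above it, the median was -0.17 and 5 were above 0. Across the 35 subunits Spearman's rho between GC content and log2 fold change was -0.73 and Pearson's r -0.67, a description across genes that share the same 8 libraries. The whole table showed the same direction: rho was -0.47 over 13514 genes, and genes split at the same GC value had medians of 0.10 (8035 genes) and -0.17 (5479 genes). With length, rho across the subunits was -0.03.

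**Figure D4:**
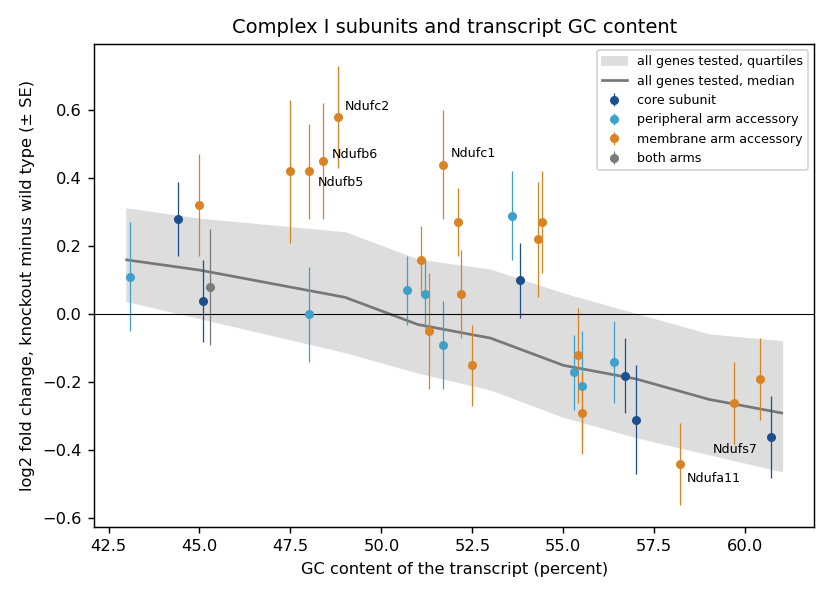
Log2 fold change (± SE) of tested subunits against the GC content of their transcripts in percent, over the median and quartiles of all tested genes in GC bins. The subunits slope in the direction of the whole table. Of the 35 tested subunits, 12 lie above the quartile band of their GC bin and 1 below it. By construction, equal shares of all genes lie above and below the band. The labelled Ndufc2, Ndufb5, Ndufb6 and Ndufc1 are among the subunits above it. With the GC trend of each library removed, 19 of the 35 subunits were above 0 and 16 below, with a median of 0.02 (-0.01 over all genes).

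When the trend of each library with GC content was removed by lowess, the split narrowed. The medians of the low-GC and high-GC subunits became 0.14 and -0.01, and rho became -0.32, beside -0.02 over all genes. Among single genes, Ndufc2 kept a log2 fold change of 0.51 (adjusted p = 0.280) and Ndufb5 0.33. Those of Ndufa11 (-0.22, adjusted p = 0.428), Ndufs7 (-0.09), Ndufb10 (-0.15) and Ndufb7 (-0.01) came closer to 0. Over the Nduf genes with an unadjusted p below 0.05, the correction moved 3 of the 9 higher genes by over 1.5 times (Ndufv2 to 0.14, Ndufaf4 to 0.33 and Ndufb3 to 0.19) and all 3 lower genes.

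The same split could be followed library by library. For each gene the log2 CPM was taken less its mean over the 8 libraries, and the median over a group of genes was read per library. The low-GC subunits were at 0.07, -0.29, -0.04 and -0.10 in wild-type replicates 1 to 4 and at -0.08, 0.19, 0.17 and 0.09 in knockout replicates 1 to 4. The high-GC subunits were at 0.14, -0.15, 0.18 and -0.02 in wild type and -0.03, -0.06, 0.01 and -0.16 in the knockout. Low-GC subunits exceeded high-GC subunits in knockout replicates 2 to 4 and were under them in all wild-type libraries and in knockout replicate 1. Over all tested genes, the low-GC median exceeded the high-GC median by little in wild-type replicate 1 (0.02 and -0.05) and not at all in knockout replicate 1 (both 0.0), so that these libraries stood between the other 3 of each genotype. Wild-type replicate 2 was low in subunits of both kinds.

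**Figure D5:**
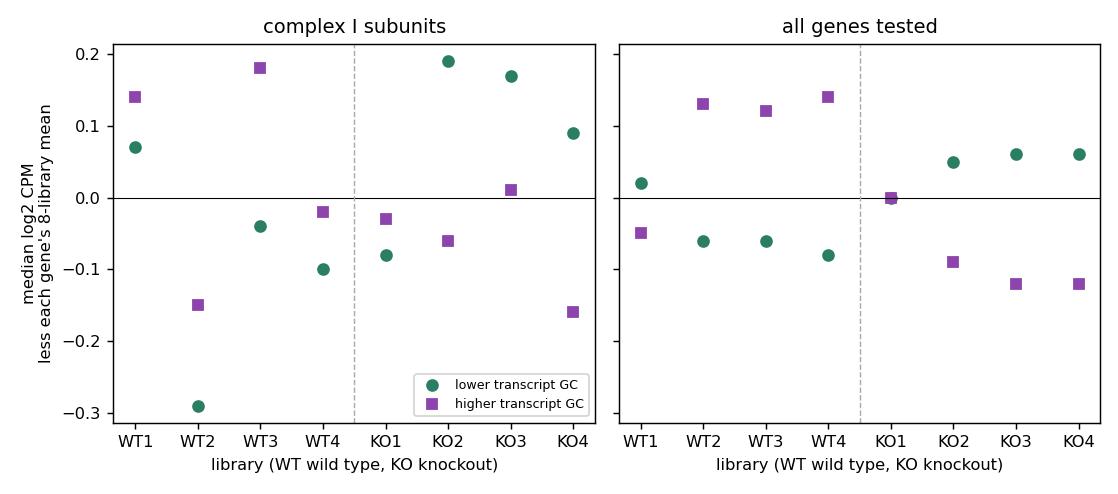
Median log2 CPM of low-GC and high-GC genes in each library, less the mean of each gene over the 8 libraries, for complex I subunits (left) and all tested genes (right). On the right, low-GC genes are under high-GC genes in wild-type replicates 2 to 4 and above them in knockout replicates 2 to 4, and both replicates 1 lie near 0.

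Wild-type replicate 1 was the library on which the calls depended. With it left out, 1313 genes of 13874 passed the threshold (3.39% higher and 6.08% lower), and among the 44 Nduf genes 4 passed as higher (9.09%) and 1 as lower (2.27%). The higher genes were Ndufc2 (log2 fold change 0.60, edgeR adjusted p = 0.0409), Ndufb5 (0.50, 0.0382), Ndufa6 (0.40, 0.0453) and Ndufaf4 (0.79, 0.0186), and the lower gene was Ndufa11 (-0.50, 0.0292). With that library left out and the GC trend removed as well, 1 of 44 passed, Ndufa6, at 0.49 (adjusted p = 0.0498), beside 0.764% of all genes that passed as higher and 1.33% as lower. Ndufaf4 was then at 0.51 (adjusted p = 0.114). Leaving out any other library called no Nduf gene. Wild-type replicate 1 had the highest acinar share of the wild-type libraries, 27.0%, but knockout replicate 3 had 28.8%, and the part of the acinar share in these calls was not tested.

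Genes that work around complex I were read from 6 lists with rows in the table, and none of their members passed the adjusted threshold in the fit of all 8 libraries. Over all genes tested, 51.3% were above 0, and 8.42% were higher and 10.3% lower at an unadjusted p below 0.05, which is the background for each count that follows. Of the 85 list genes tested, 14 were higher and 2 lower at that p. The part of the GC trend in the values of the list genes was not tested, with or without wild-type replicate 1. Of 14 further assembly factors, 10 were above 0 (median log2 fold change 0.10), and 4 were higher and 0 lower at an unadjusted p below 0.05. Timmdc1, which anchors the coenzyme Q module in the membrane with Ndufaf3 and Ndufaf4, was at 0.39 ± 0.14 (SE; adjusted p = 0.194 by edgeR). Tmem70, which helps to build ATP synthase and complex I, was at 0.48 ± 0.19 (adjusted p = 0.221). Of 15 genes of iron-sulfur cluster assembly, 10 were above 0 (median 0.06) with 3 higher and 0 lower at that p. Among them were Hspa9, a chaperone that hands clusters on (0.32 ± 0.12, adjusted p = 0.199), and Lyrm4, a partner of the cysteine desulfurase (0.38 ± 0.14, adjusted p = 0.200).

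Other dehydrogenases also feed coenzyme Q, and 8 of 13 such genes, complex II included, were above 0 (median 0.07), with 2 higher and 0 lower at an unadjusted p below 0.05. The largest value belonged to Prodh, proline dehydrogenase, which stood at 1.63, 0.211, 0.415 and 0.504 CPM in wild type against 3.94, 5.09, 2.69 and 1.35 in the knockout. Only wild-type replicate 1 and knockout replicate 4 crossed. In the fit its log2 fold change amounted to 2.24 ± 0.64 (SE; adjusted p = 0.166 by edgeR), and 3.08 (adjusted p = 0.0132) without wild-type replicate 1. Chdh, choline dehydrogenase, was at 0.67 ± 0.28 (adjusted p = 0.248). Both were highest in knockout replicate 2 (5.09 CPM for Prodh and 11.3 CPM for Chdh), the library in which the summed liver markers stood at 4630 CPM beside at most 391 in the others. Without that library the log2 fold changes were 1.92 for Prodh (adjusted p = 0.246) and 0.43 for Chdh (adjusted p = 0.404). Of 13 genes for coenzyme Q synthesis and handling, 5 were above and 8 below 0 (median -0.05), with 1 higher and 1 lower at that p. Coq8b, an atypical kinase of that pathway, averaged 7.19 ± 1.04 CPM in wild type, against 4.68 ± 0.445 in the knockout (SD, n = 4 each). Its knockout libraries were all below the wild-type ones (log2 fold change -0.62 ± 0.14 SE, edgeR adjusted p = 0.120). Coq10b, which carries coenzyme Q, was at 0.80 ± 0.24 (adjusted p = 0.166).

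Among 14 regulators of respiratory genes, 9 were above 0 (median 0.14), with 2 higher and 0 lower at an unadjusted p below 0.05. Ppargc1a, the coactivator that drives mitochondrial genes, was at 3.36, 2.83, 2.18 and 1.54 CPM in wild type against 3.76, 4.70, 4.73 and 3.57 in the knockout, with every knockout library higher. Its log2 ratio of knockout to wild type was 0.76 ± 0.23 (SE; adjusted p = 0.160 by edgeR), and that of Gabpb1, a subunit of GABP, 0.32 ± 0.14 (adjusted p = 0.267). Of 16 genes that supply or shuttle NADH, 10 were above 0 (median 0.13), with 2 higher and 1 lower at that p. Idh3g, of the NAD-linked isocitrate dehydrogenase, was at -0.30 ± 0.10 (adjusted p = 0.175) and Dlat, of pyruvate dehydrogenase, at 0.29 ± 0.10 (adjusted p = 0.197). Without wild-type replicate 1, 7 of the 85 list genes passed the edgeR threshold as higher (8.24%; 3.39% of all genes) and 1 as lower (1.18%; 6.08% of all genes). The lower gene was Coq8b (adjusted p = 0.0114), and the higher ones included Coq10b (0.00968) and Ppargc1a (0.0319).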

How the data were processed

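Per the labels' protocols, total RNA with RIN of at least 8.5 from hand-picked islets (TRIZOL, DNase) of 4 mice per genotype went into SeqPlex RNA libraries, made from amplified, randomly primed cDNA. The sources used here do not give the strand, the gene annotation or whether polyadenylated RNA was selected. All 8 libraries carry the same run and lane in the labels. The submitters' processing notes name STAR 2.4.1, Partek and mm9. The authors deposited estimated counts per gene (9.98 to 12.4% of values not whole within 0.01), which were rounded to whole numbers, and RPM values, which are those counts over 1 constant per library plus 0.0001.

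Counts were tested with edgeR 4.0.16 (R 4.3.3; TMM, filterByExpr by genotype, robust quasi-likelihood F-test, Benjamini-Hochberg over 13617 genes, threshold 0.05). CPM used TMM-scaled sizes, and SEs come from the F statistic. Amplified reads are not independent molecules, so counting errors understate the true error. DESeq2 1.42.0, limma 3.58.1 (voom, voom with weights, trend on log2 of the authors' RPM plus 1), other normalizations, filters, covariates, trend corrections (lowess span 0.3 on GC or length), the replicate number as a block and leaving out each library were alternatives. The Xist class (limit 1000) and leaving out wild-type replicate 1 together with the GC correction were added after seeing the data.

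GC content, length and exon overlap came from GENCODE M21 (GRCm38), matched by symbol for 98.5% of genes. Promoters came from the RefSeq table of GRCm38.p6, which is not the mm9 of the counts. The fit was tested on simulated data. The smallest chi-square per degree of freedom between any 2 libraries was 24.7, so none were copies. The members and lists were chosen with earlier results of these data known. Named are the core subunits, up to 6 Nduf genes higher and 6 lower of smallest p and any past the threshold, the 3 highest and 3 lowest subunits per length, every Ndufaf gene, Ndufa4, Ndufa4l2, Ndufab1 and 2 genes per list. Ndufa6, Ndufa8 and Ndufb3 are named outside this rule and were chosen after their values were seen. A gene that the rule selects is left out of the text and figures.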

Additional observations from a re-analysis of the deposited data

Results flagged for a closer look

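In each genotype group of 4 libraries, the gap between the highest or lowest library and its neighbour was compared with the range of the group for the named genes and with Dixon's critical value. That value was exceeded in 2 of the 56 groups checked, and chance exceeds it in about 1 in 20. Ndufs8 in the knockout stood at 3.65 CPM in replicate 1 and at 4.20 to 4.27 CPM in the others (gap over range 0.88). Ndufc1 in wild type stood at 7.99 CPM in replicate 1 and at 5.99 to 6.29 CPM in the others (gap over range 0.851).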

How the results depend on the processing

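The log2 fold changes of the Nduf genes selected by the naming rule were recomputed under the alternatives. Of these values, 644 kept their direction and their side of the threshold, 18 changed sign and 8 passed the threshold only under the alternative. The list genes, the numbers of genes passing and the medians are outside this tally. Nduf genes passing numbered 0 with all 8 libraries in edgeR, 2 with DESeq2 and with library weights, 1 without wild-type replicate 1 and with the GC trend removed, and 0 to 5 with each library left out, above 0 only without wild-type replicate 1. Genes passing in all numbered 2 in the main comparison, 48 with no composition factor, 51 with limma-trend, 526 with DESeq2, 549 with library weights, 291 without wild-type replicate 1 and with the GC trend removed, and 2 to 1313 with each library left out (5 without knockout replicate 4). The subunit median was -0.0723 with limma-trend, where the median of all genes was -0.09, and the cause was not tested.

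Signs changed for these genes. With no composition factor Ndufab1 was at -0.04 and Ndufs1 at -0.04. With limma-trend Ndufab1 was at -0.04, Ndufs1 at -0.08 and Ndufs3 at -0.04. With the GC trend removed Ndufab1 was at -0.05, Ndufs1 at -0.09 and Ndufv3 at 0.02. Without wild-type replicate 1 and with the GC trend removed Ndufab1 was at -0.15, Ndufs1 at -0.10, Ndufb7 at 0.01 (from -0.26), Ndufs8 at 0.04 (from -0.31), Ndufv1 at 0.09 (from -0.18) and Ndufv3 at 0.07. Ndufaf2 was at 0.01 with library weights and with the Xist class. With each library left out Ndufaf2 ran from -0.05 to 0.02 and Ndufs1 from -0.02 to 0.06.

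The replicate numbers share no stated origin. Deviations of same-numbered libraries from their group means correlated at 0.038, 0.21, 0.156 and 0.147 for replicates 1 to 4, while the best correlation with another number was 0.287, 0.03, 0.053 and 0.061. Replicates 2 to 4 thus correlated best with their own number and replicate 1 did not, and since its own value was under 0.1 the numbers were not taken as pairs. With the replicate block 2 genes and 0 Nduf genes passed, and the subunit median was 0.0617.

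Ndufs5 was too low to test, and Ndufaf1 and Ndufaf6, at 1.35 to 3.35 CPM, had SEs of 0.21 and 0.22. The strand of the libraries and the annotation behind the counts bear on overlapping genes and copies.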
